A study of Mus musculus with 16 samples.

Results

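The genes described here are 10 components of bone morphogenetic protein (BMP) and transforming growth factor-β (TGF-β) signaling in pulmonary endothelial cells (ECs), chosen by name out of the 54532 genes of each expression table. They were the receptors Bmpr2 and Acvrl1, the co-receptors Eng and Tgfbr3, the ligand Bmp6, the inhibitory Smads Smad6 and Smad7, and the target genes Id1, Id2 and Id3. All 10 were found in both tables and passed the filter on low values, which was a mean of at least 0.5 FPKM (fragments scaled by gene length and library size). RNA-seq was performed on bulk ECs isolated from mouse lung with magnetic beads, by depletion of cells carrying CD45 and selection of cells carrying CD31. In the first experiment, young adult male wild-type (WT) C57/BL6J mice received saline (n = 4) or 10 mg/kg lipopolysaccharide (LPS, n = 6) intratracheally, and cells were taken after 24 h. In the second, all mice carried Fgfr1 loxP/loxP alleles and received tamoxifen and then 2 mg/kg LPS for 24 h. The Fgfr1 iΔEC/iΔEC mice (n = 3) also carried VE-cadherin-CreERT2, a recombinase driven by an endothelial promoter, and the Fgfr1 loxP/loxP mice (n = 3) were their controls. No saline group belonged to the second experiment. Each library is named by its group and replicate number, and p-values measure the spread between these libraries, since the labels do not say that each came from a separate mouse. The reads assigned to genes were 13478726 to 18807007 per saline library, 17840221 to 19043015 per LPS library, 15969575 to 17002788 per loxP/loxP library and 16642177 to 16943522 per iΔEC/iΔEC library.

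BMP and TGF-β ligands bind a pair of type II and type I serine/threonine kinase receptors, and the type II receptor activates the type I receptor. BMP type I receptors then phosphorylate Smad1, Smad5 and Smad9, TGF-β and activin type I receptors phosphorylate Smad2 and Smad3, and the phosphorylated Smads enter the nucleus with Smad4 and regulate targets such as the Id genes. In the endothelium the BMP branch runs largely through ACVRL1 (also called ALK1), BMPR2 and endoglin, and loss-of-function mutations of these genes are known from hereditary hemorrhagic telangiectasia and pulmonary arterial hypertension.

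LPS-treated mice were first compared with saline-treated mice. The type II receptor Bmpr2, the type I receptor Acvrl1, the co-receptor Tgfbr3, the ligand Bmp6 and both inhibitory Smads fell, and the target Id2 rose. Once values were scaled on endothelial markers, Tgfbr3, Bmp6 and Id2 kept their calls, Bmpr2 (-0.33 on the log2 scale), Smad6 (-0.23) and Smad7 (-0.08) did not pass, and Acvrl1 was at 0.07. This scaling moved the all-gene median up to 0.57, so it is no test of the rise of Id2. Of the 10 genes, 6 were lower and 1 was higher in limma on log2(FPKM + 1), with p-values adjusted by Benjamini-Hochberg over all genes tested and 0.05 as the threshold. Eng, Id1 and Id3 did not pass. Over all 14893 genes tested, 23.7% were lower and 29.5% were higher at this threshold. With a log2 fold change of at least 1 in size as well, 3 members were lower (Bmpr2, Tgfbr3 and Bmp6) and 1 was higher (Id2), against 6.79% and 11.9% of all genes. The groups did not overlap for 5 members that were lower and 1 that was higher, against 16.7% and 22.7% of all genes. The median log2 fold change of the members was -0.74, and that of all genes was 0.01. In a bulk fraction, fewer cells of a type and less RNA per cell cannot be told apart, and 6 of 10 endothelial markers were also lower, as described further on.

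**Figure D1:**
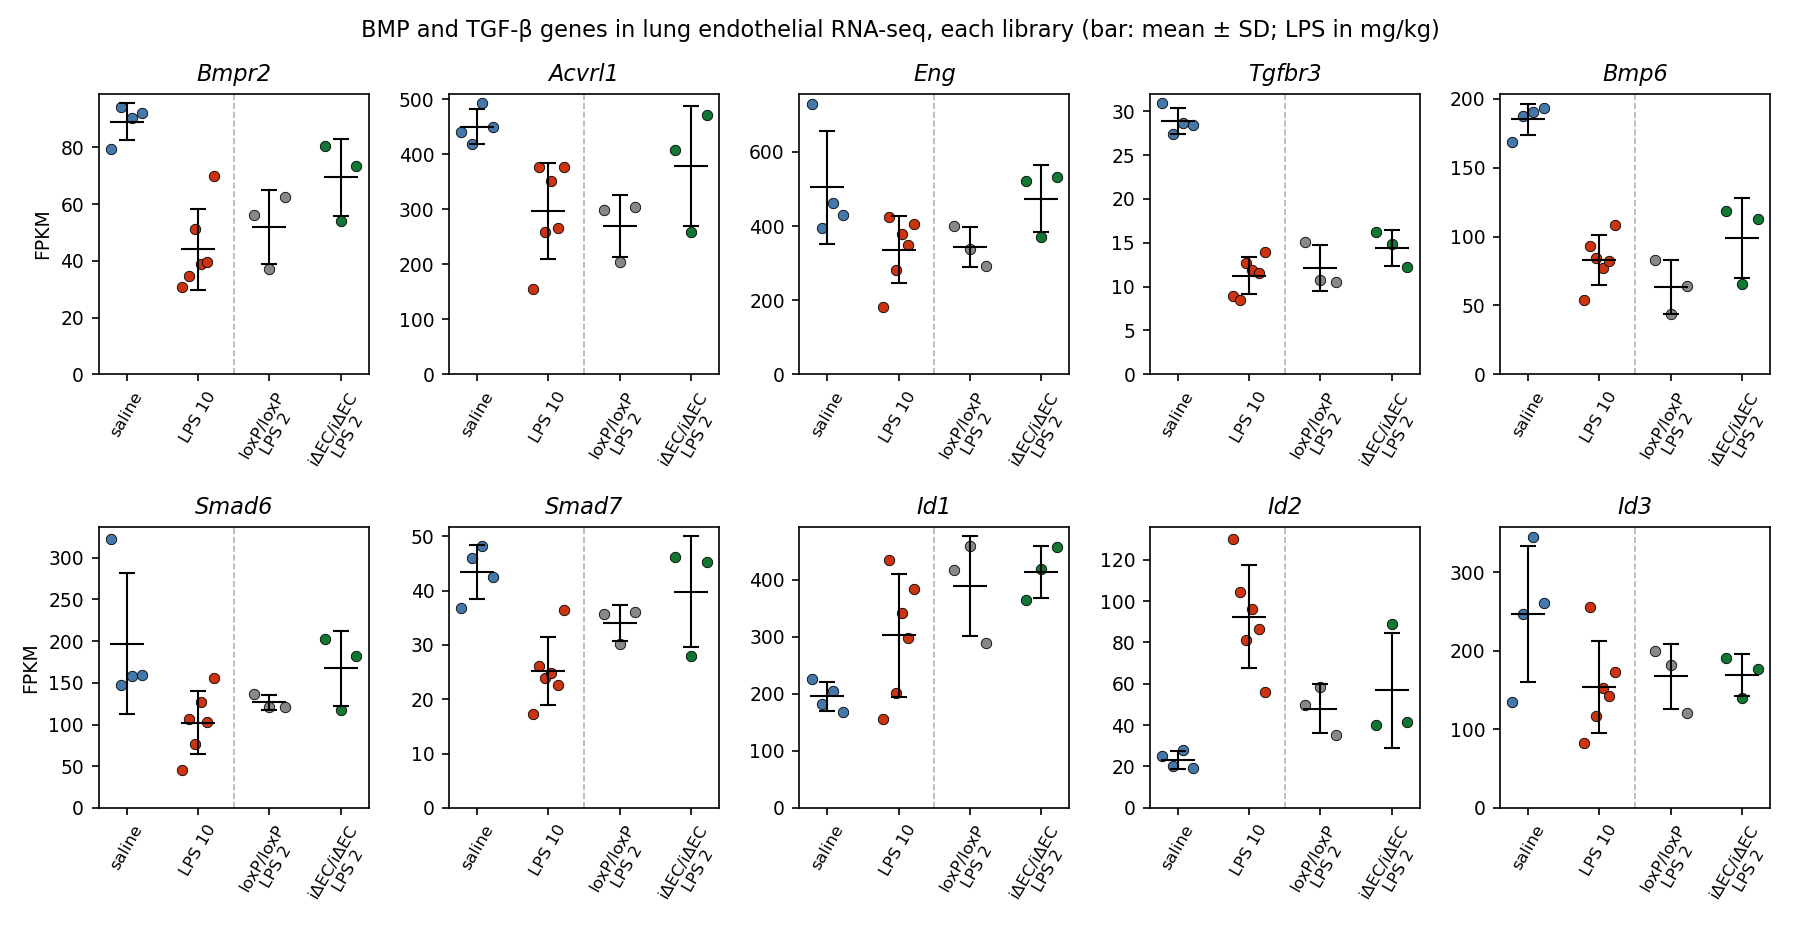
FPKM of each of the 10 genes in every library, with saline and LPS at 10 mg/kg to the left of the dashed line and loxP/loxP and iΔEC/iΔEC at 2 mg/kg LPS to the right. Points are libraries and bars are the mean ± SD. For Tgfbr3 the 6 LPS libraries lie between 8.49 and 13.9 FPKM, under all saline libraries, and for Id2 they lie between 55.8 and 130.2 FPKM, above all of them.

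Bmpr2 encodes the BMP type II receptor kinase and lies on chromosome 1 (GRCm38, chr1:59763400-59879014, plus strand). Its level was 79.5, 94.3, 90.4 and 92.2 FPKM in saline libraries 1 to 4, and ranged in the LPS libraries from 30.7 to 69.8 FPKM with a median of 39.2. All LPS libraries were lower than all saline libraries. Mean levels were 89.1 ± 6.58 (SD, n = 4) and 44.1 ± 14.3 FPKM (SD, n = 6), and the log2 fold change was -1.05 (SE 0.20, limma adjusted p = 0.00144, two-sided exact permutation p = 0.00952). LPS 6 stood highest, at 69.8 FPKM, and the other LPS libraries were at 51.1 FPKM or under. The gene rests on 10156 to 37533 reads per library of this experiment.

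Acvrl1 encodes the endothelial type I receptor for BMP9 and BMP10 (chr15:101128522-101145336, plus strand). It was at 440.1, 418, 494 and 450.2 FPKM in the saline libraries. In the LPS libraries it ranged from 155 to 376 FPKM, with a median of 309. The groups did not overlap, although LPS 2, LPS 4 and LPS 6 came close to the saline range, at 376, 351 and 376 FPKM. Its log2 fold change of -0.66 (SE 0.25) was close to the limit of the test (limma adjusted p = 0.0431, exact permutation p = 0.00952), and the call was lost without any 1 of saline 1, saline 2, saline 3, saline 4, LPS 3 or LPS 5 (adjusted p between 0.0624 and 0.0999). An exon of the antisense gene Gm16031 overlaps an exon of Acvrl1.

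Eng encodes endoglin, a co-receptor abundant on ECs that presents ligand to ACVRL1 (chr2:32646595-32682669, plus strand). It was the most abundant member in both groups. Its saline values were 730.2, 395, 462 and 431 FPKM, and the LPS values ranged from 181 to 425 FPKM with a median of 363. The groups overlapped, because saline 2 lay within the LPS range. With a log2 fold change of -0.59 (SE 0.27), Eng did not pass in limma (adjusted p = 0.0844), while the exact permutation p of this gene alone was 0.0381.

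Tgfbr3 encodes betaglycan, a co-receptor that binds TGF-β2 and inhibin (chr5:107106570-107289629, minus strand). Relative to its mean, it had the smallest spread of the 10 genes among saline libraries, with 30.9, 27.4, 28.7 and 28.4 FPKM. The LPS values ran from 8.49 to 13.9 FPKM, with a median of 11.7, so that the highest LPS library had less than the lowest saline library. Means were 28.9 ± 1.48 (SD, n = 4) in saline and 11.2 ± 2.13 FPKM (SD, n = 6) in LPS, which was a 2.57-fold lower level and a log2 fold change of -1.30 (SE 0.14, limma adjusted p = 2.97e-05, exact permutation p = 0.00952). Among the members that were lower, this was the largest change. Exons of the gene model Gm43422 on the same strand overlap Tgfbr3.

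Bmp6 encodes a BMP ligand that ECs secrete (chr13:38345107-38500302, plus strand). Saline libraries had 169, 187, 191 and 194 FPKM. LPS libraries had 53.9 to 108 FPKM, with a median of 83.2, and none reached the saline range. The mean was 2.23-fold lower in LPS, with a log2 fold change of -1.17 (SE 0.18, limma adjusted p = 0.000281, exact permutation p = 0.00952). Bmp6 shares exonic bases with Txndc5 on the other strand, as Eng does with Fpgs. Whether the counting used strand is not given in the sources used here, so reads from such shared bases cannot be told apart.

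Smad6 and Smad7 encode the inhibitory Smads, which block the receptors and are themselves induced by the pathway as feedback. Smad6 (chr9:63953076-64022059, minus strand) was at 323 FPKM in saline 1 and at 147, 158 and 159.6 FPKM in the other saline libraries. Its LPS values ranged from 45.7 to 155 FPKM with a median of 105. The groups overlapped through LPS 6, which lay above saline 2. For Smad6 the log2 fold change was -0.96 (SE 0.33, limma adjusted p = 0.0313, exact permutation p = 0.019). It did not pass without saline 1 (-0.69, adjusted p = 0.0904) or without LPS 3 (-0.89, adjusted p = 0.0571).

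Smad7 had saline values of 36.8, 46.0, 48.2 and 42.5 FPKM and LPS values from 17.4 to 36.5 FPKM, with a median of 24.3. The groups were apart, but saline 1 and LPS 6 nearly touched. The log2 fold change was -0.79 (SE 0.17, limma adjusted p = 0.00312, exact permutation p = 0.00952), and the call held without any single library. On the endothelial scale it was -0.08 (adjusted p = 0.734) and the groups overlapped.

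Of the 10 genes, 6 (Bmpr2, Eng, Id3, Smad6, Id2 and Bmp6) had a promoter window in the RefSeq table used here. Each window is 300 bases long on GRCm38.p6, 250 before the start site and 50 after it. The windows of Bmpr2, Id3 and Bmp6 are annotated as exonic over all 300 bases and that of Id2 over 211, and the Id2 start site used lies inside the gene as given further on, so these windows are not all upstream of the annotated genes. Searches on both strands were made for GGCGCC, a GC-rich element bound by BMP Smads, for the palindromic Smad element GTCTAGAC, and for the joint motif of GGCGCC followed after 5 bases of any kind by GTCT, which holds the first motif within it and is of the kind found in BMP response elements of Id genes. Of all 32851 promoters of this length, 11.9%, 0.213% and 0.0731% held them, respectively. Smad6 held GTCTAGAC, which 70 of all promoters hold, and Bmpr2 and Id2 each held GGCGCC once. The windows of Eng, Id3 and Bmp6 held none of these letters, and the joint motif was in none of the 6. The Smad6 and Id2 stretches are shown since these are an inhibitory Smad that fell and the target that rose. Capitals mark the motif. The Smad6 stretch (chr9:64022056-64022159, minus strand) ends with its motif, which begins 4 bases before the start site and runs 4 bases past it. The Id2 stretch (chr12:25096254-25096342, minus strand) has its motif beginning 231 bases before the start site used. The whole Id2 stretch lies within the annotated gene, outside its exons, and not upstream of the gene.
Smad6: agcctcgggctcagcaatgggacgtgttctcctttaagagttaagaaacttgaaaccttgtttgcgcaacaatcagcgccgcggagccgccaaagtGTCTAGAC
Id2: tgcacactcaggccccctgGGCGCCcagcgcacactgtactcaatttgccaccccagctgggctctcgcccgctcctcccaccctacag

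The Id genes encode inhibitors of basic helix-loop-helix transcription factors, and Id1 in particular is used as a readout of BMP signaling in ECs. Of the 3 Id genes, Id2 passed the test. Id2 (chr12:25093799-25097140, minus strand) was the least abundant member in saline, at 25.0, 20.1, 28.2 and 19.3 FPKM. In LPS it ranged from 55.8 to 130.2 FPKM, with a median of 91.5, and all LPS libraries were above all saline libraries. Means were 23.2 ± 4.21 (SD, n = 4) in saline and 92.5 ± 24.9 FPKM (SD, n = 6) in LPS, which was a 3.99-fold higher level and a log2 fold change of 1.92 (SE 0.21, limma adjusted p = 3.67e-05, exact permutation p = 0.00952).

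Id1 (chr2:152736251-152737410, plus strand) was at 226, 182, 205 and 169 FPKM in saline and at 156 to 435 FPKM in LPS, with a median of 320.0. Of the LPS libraries, LPS 1 was under all saline libraries and LPS 3 lay among them, so the groups overlapped. Its log2 fold change of 0.55 (SE 0.28) did not pass (limma adjusted p = 0.117, exact permutation p = 0.124). Without LPS 1 it was 0.72 and passed (adjusted p = 0.0224).

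Id3 (chr4:136143497-136145755, plus strand) was at 135, 246, 344 and 261 FPKM in saline and ranged from 82.1 to 256 FPKM in LPS, with a median of 148. Saline 1 was low and LPS 2 was high, and the groups overlapped widely. Its log2 fold change was -0.69 (SE 0.32, limma adjusted p = 0.091, exact permutation p = 0.114). The change passed without saline 1 (-0.95, adjusted p = 0.0222) or without LPS 2 (-0.85, adjusted p = 0.0337).

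Ordered by level per gene length in saline, Eng (mean 505 FPKM) and Acvrl1 (450.5 FPKM) were the most abundant, and their libraries overlapped. A middle set of Id3, Smad6, Id1 and Bmp6 followed, with means from 185 to 246 FPKM and overlapping libraries between each neighbour and the next. Bmpr2 at 89.1 FPKM and Smad7 at 43.4 FPKM were each apart from their neighbours, and Tgfbr3 (28.9 FPKM) and Id2 (23.2 FPKM) overlapped at the bottom. In LPS the order was Eng, Id1, Acvrl1, Id3, Smad6, Id2, Bmp6, Bmpr2, Smad7 and Tgfbr3, so that Id2 stood at rank 6 and Tgfbr3 at rank 10. The loxP/loxP mice at 2 mg/kg had Id1 first (389 FPKM) and also Tgfbr3 last (12.1 FPKM), and the iΔEC/iΔEC mice had Eng (474 FPKM), Id1 and Acvrl1 at the top. Levels of the 2 experiments are set side by side and were not compared, since dose and genotype differ.

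Marker RNA of several cell types also differed between saline and LPS, and cell numbers cannot be told from RNA per cell here. Of 10 endothelial markers, whose most abundant was Cldn5, a tight junction gene, all 10 had a log2 fold change below 0 and 6 were lower at the threshold. Their summed level, in which Cldn5 weighs most, was 5429, 3276, 4066 and 3391 FPKM in saline 1 to 4. It was 1434, 3361, 2148, 3382, 2551 and 3105 FPKM in LPS 1 to 6. The sums overlapped, while the mean log2(FPKM + 1) of these markers did not, at 7.85 to 8.09 in saline and 6.49 to 7.57 in LPS. Markers of leukocytes, in spite of the CD45 depletion, summed to 66.0 to 229 FPKM in saline and 632 to 1534 FPKM in LPS, and 6 of 6 were higher, led in abundance by Coro1a. Of the genes for the sorted proteins, Pecam1 (CD31) was at 400.3 ± 81.5 (SD, n = 4) in saline and 358 ± 76.8 FPKM (SD, n = 6) in LPS. Ptprc (CD45) was at 6.97 ± 3.13 and 34.6 ± 11.4 FPKM. Macrophage markers, with Lyz2 the most abundant, summed to 425 to 1196 FPKM in saline and 2181 to 4719 FPKM in LPS, with 6 of 8 higher and 1 lower. Neutrophil markers, led by S100a9, summed to 69.5 to 1380 FPKM in saline, with saline 1 highest, and to 1293 to 6638 FPKM in LPS, with 7 of 8 higher. No marker of any list was at 0 in all libraries of this experiment. LPS 1 had the lowest endothelial and the highest leukocyte sum of the LPS libraries, and it was the lowest LPS library for 8 of the 10 genes and the highest for Id2. LPS 6 had the lowest leukocyte sum, the highest level of 5 of the 10 genes and the lowest Id2. The part of cell content in the changes of the 10 genes was not tested directly.

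Of the other lists, the lymphocyte markers (most abundant Cd79a) had 3 of 5 tested genes lower and summed to 24.0 to 134 FPKM in saline and 12.1 to 48.4 FPKM in LPS. Over all genes, 23.7% were lower and 29.5% were higher. Epithelial markers (Sftpc) had 2 of 10 lower, with 1077 to 2861 FPKM in saline and 269 to 961 FPKM in LPS. Their log2 fold changes were below 0 for 7 and above 0 for 3. The mean log2(FPKM + 1) of the epithelial list overlapped, at 4.36 to 6.04 in saline and 3.75 to 5.18 in LPS. Fibroblast markers (Col3a1) had 4 of 6 lower, with 36.1 to 62.4 and 19.3 to 45.8 FPKM. Mural markers (Acta2) had 2 of 7 lower, with 26.6 to 121 and 33.1 to 58.8 FPKM, and erythroid markers (Hba-a1) had 3 of 4 higher, with 6.12 to 25.3 and 20.8 to 73.8 FPKM. Epithelial RNA was thus abundant in the saline fraction, and Sftpc alone was at 1316 ± 549.7 FPKM (SD, n = 4) there.

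**Figure D2:**
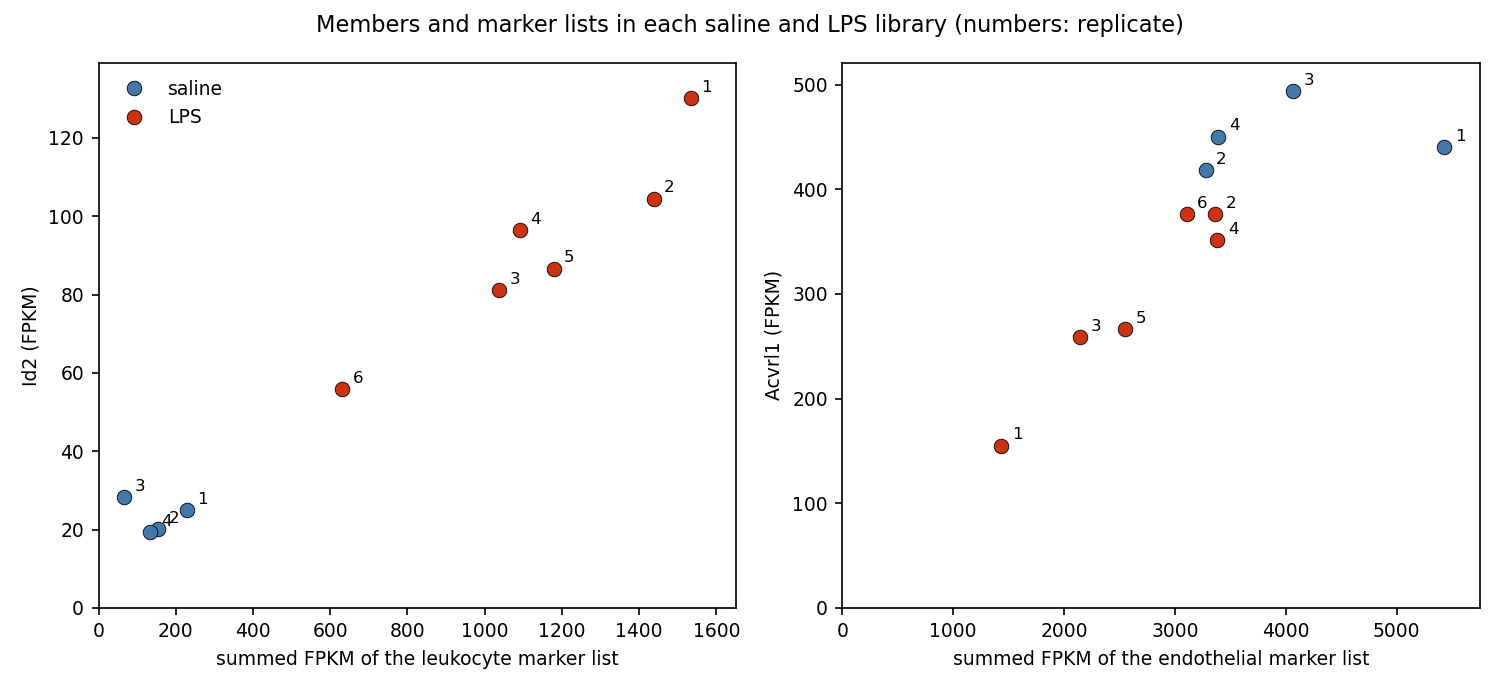
Left, Id2 (FPKM) against the summed FPKM of the leukocyte markers, and right, Acvrl1 (FPKM) against the summed FPKM of the endothelial markers, for the 10 saline and LPS libraries. Numbers are replicates. LPS 1 lies at the top right of the left panel (130.2 and 1534 FPKM) and at the bottom left of the right panel (155 and 1434 FPKM).

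Values were also scaled per library on the 10 endothelial markers, which sets the mean of their log2 levels equal in all libraries. These markers did not fall alike, and their log2 fold changes ran from -0.12 for Emcn and -0.17 for Pecam1 to -1.63 for Kdr. Results on this scale therefore depend on the choice of markers, and other choices were not tested. This scaling moved the all-gene median of the log2 fold change from 0.01 to 0.57, and with it 7285 genes were higher and 784 lower in LPS, in place of 4399 and 3529. Scaling on total reads moved the median to -0.15 with 3464 genes higher and 4678 lower, and quantile normalization gave 3569 and 4295. On the endothelial scale Tgfbr3 (-0.61, adjusted p = 0.0224) and Bmp6 (-0.45, adjusted p = 0.0433) were still lower, and their groups still did not overlap. Id2 (2.63, adjusted p = 4.85e-05) and Id1 (1.27, adjusted p = 0.000142) were higher with groups apart, Id1 between 130.1 and 161 in saline and between 260.2 and 455 in LPS in units of scaled FPKM. Bmpr2 was at -0.33 (adjusted p = 0.225), Smad6 at -0.23 (adjusted p = 0.425) and Smad7 at -0.08 (adjusted p = 0.734). Acvrl1 (0.07), Eng (0.13) and Id3 (0.04) changed sign, with adjusted p of 0.732 or more for Acvrl1 and Id3 and 0.573 for Eng. Relative to the all-gene median on the same scale, the differences were -0.50 for Acvrl1, -0.44 for Eng, -0.90 for Bmpr2, -1.19 for Tgfbr3 and -1.02 for Bmp6, and Id1 and Id2 stood 0.70 and 2.06 above it. On quantile-normalized values Id1 was at -0.04, and Eng (-1.13, adjusted p = 0.00176) and Id3 (-1.26, adjusted p = 0.00695) passed as lower. Both also passed when scaled on total reads, Eng at -0.80 (adjusted p = 0.0144) and Id3 at -0.89 (adjusted p = 0.0367).

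**Figure D3:**
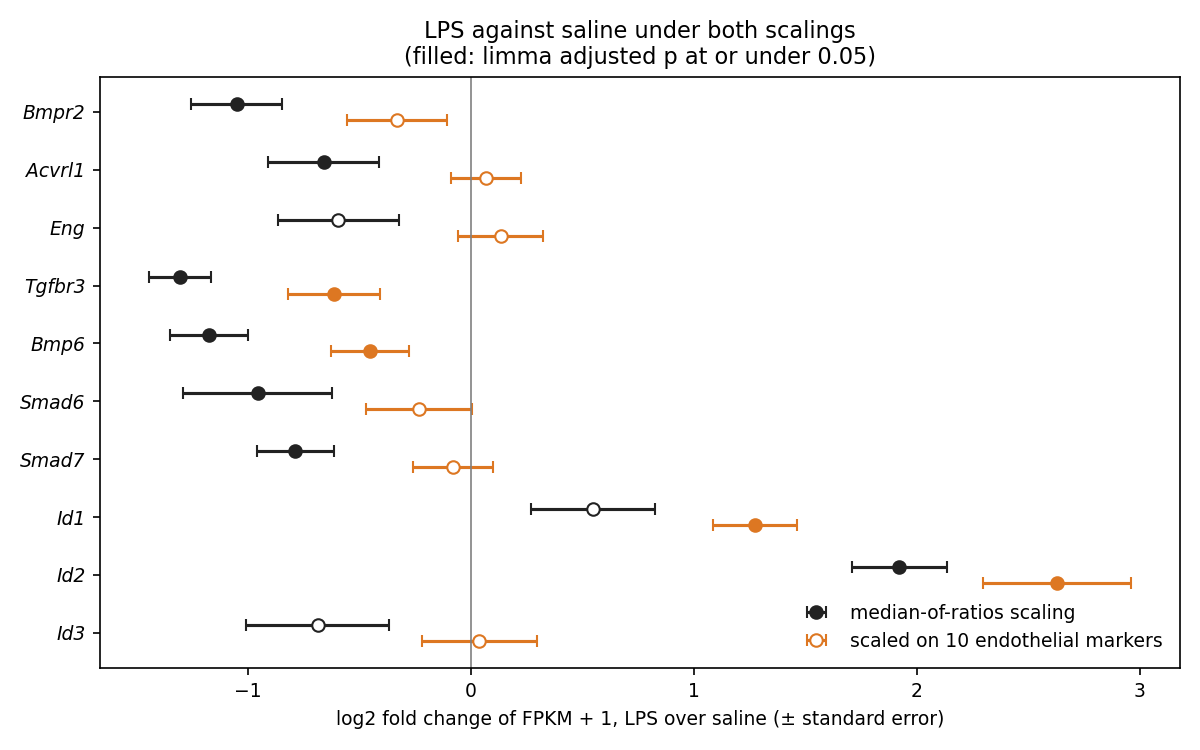
Log2 fold change of FPKM + 1 in LPS over saline (± standard error) for the 10 genes, with median-of-ratios scaling in black and with scaling on 10 endothelial markers in orange. Filled points have a limma adjusted p at or under 0.05. Tgfbr3, Bmp6 and Id2 are filled under both scalings, Acvrl1, Eng and Id3 change sign, and Id1 is filled only on the endothelial scale.

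Within groups, the 10 genes did not vary as one block. Deviations of log2(FPKM + 1) from the group mean were correlated over the 10 libraries of the first experiment, which share dissociation, depth and cell content within each library, so the coefficients describe these libraries only. Bmpr2 was most like Prickle2 and Il17rd (Pearson r = 0.985 for each) and Ptprb (0.955) among the 7765 genes at a mean level of 5 FPKM or more. Acvrl1 was most like Ryk (0.988), Tspan7 (0.987) and Tie1 (0.987), of which Tie1 is one of the endothelial markers. The genes most like Smad6 were Slc35f5 (0.981), Nes (0.978) and Nsg1 (0.976), and those most like Id1 were Trp53i13 (0.97), Tpm1 (0.968) and Sgsm3 (0.967). Between members, Id1 followed Acvrl1 (0.91) and Eng (0.89), Smad6 followed Eng (0.95), and Bmpr2 followed Smad7 (0.82) and ran opposite to Id2 (-0.90), while Bmpr2 and Eng had a coefficient of 0.24.

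Another 60 genes of the pathway, listed by role and not by change, were then examined. Of these, 48 passed the filter on low values, and 21 were lower and 11 higher in LPS at the threshold, against 23.7% and 29.5% of all genes. Their median log2 fold change was -0.31. On the endothelial scale the counts were 11 lower and 19 higher, against 5.22% and 48.5% of all genes on that scale. Of 6 ligands of the TGF-β and activin branch, 4 passed as higher and 1 as lower. Leukocyte markers (6 of 6) and macrophage markers (6 of 8, with 1 lower) passed as higher in the same comparison. Their part in the rise of pathway genes was not tested. Of 6 BMP ligands, 3 were tested, and 2 of these passed as lower.

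Among ligands, Bmp4 fell, with means of 14.1 ± 5.20 (SD, n = 4) in saline and 3.57 ± 1.26 FPKM (SD, n = 6) in LPS and a log2 fold change of -1.70 (SE 0.31, limma adjusted p = 0.000978), and Bmp5 was also lower (-0.99). Gdf2, which encodes BMP9, the main circulating ligand of ACVRL1, was at 0 in every library of both tables, and Bmp10 did not pass the filter. Tgfb1 rose, with means of 22.1 ± 1.17 (SD, n = 4) in saline and 64.0 ± 10.2 FPKM (SD, n = 6) in LPS and a log2 fold change of 1.48 (SE 0.13, limma adjusted p = 1.02e-05), with groups that did not overlap. Inhbb, which encodes an activin subunit, was higher by 1.92 on the log2 scale with overlapping groups, and Inha, the inhibin α subunit, was lower (-1.25). The call of Inhbb was lost when the replicate number was added as a term to the fit (adjusted p = 0.0741).

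Receptors beyond the members went both ways. Tgfbr1, the TGF-β type I receptor, rose from a mean of 6.52 ± 0.898 (SD, n = 4) in saline to 17.4 ± 4.55 FPKM (SD, n = 6), and the log2 fold change was 1.26 (SE 0.18, limma adjusted p = 0.000215), with groups apart. Acvr1, a BMP type I receptor also called ALK2, was lower (-0.68), as were the activin type II receptors Acvr2b (-0.93) and Acvr2a (-0.74). Tgfbr2 had a log2 fold change of -0.28 and did not pass (adjusted p = 0.0567). Bambi, a pseudoreceptor without a kinase domain, was lower (-1.06), and so was the co-receptor Rgmb (-0.90). On the endothelial scale Acvr1, Acvr2a, Acvr2b, Bambi and Rgmb did not pass and Tgfbr1 was at 1.92.

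Of the 6 Smads that transmit the signal, Smad3 of the TGF-β branch was higher (0.98) and Smad9 (-0.83) and Smad5 (-0.64) of the BMP branch were lower, although Smad5 turned to 0.04 on the endothelial scale. Smad2 also passed as higher, and Smad1 and Smad4 did not pass. Smad9 was scarce, at 1.17 ± 0.417 (SD, n = 4) in saline and 0.215 ± 0.125 FPKM (SD, n = 6) in LPS. Outside the cell, the activin antagonist Fst was higher (1.73) and the BMP modulator Twsg1 (-1.24) was lower.

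Latent TGF-β binding proteins, which hold secreted TGF-β in the matrix, had 4 of 5 genes passing as lower, and the 4 Ltbp genes did not overlap with saline, beside 16.7% of all genes. The other gene, Lrrc32, was at -0.20 (limma adjusted p = 0.519). In the same comparison 4 of 6 fibroblast markers and 2 of 7 mural markers passed as lower, beside 23.7% of all genes. The part of these cells in the lower Ltbp genes was not tested. Ltbp4 fell from a mean of 70.1 ± 25.7 (SD, n = 4) in saline to 13.1 ± 5.14 FPKM (SD, n = 6), and the log2 fold change was -2.35 (SE 0.28, limma adjusted p = 5.71e-05). Ltbp3 was lower by a log2 difference of -1.69 and Ltbp2 by -1.54, and these 3 also passed on the endothelial scale (-1.65, -1.07 and -0.99). Of the regulators inside the cell, the corepressor Tgif1 was higher (1.14), and the ubiquitin ligase Smurf2 (-0.77) and the corepressor Ski (-0.72) were lower but did not pass on the endothelial scale.

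The other targets showed the widest range. Tgfbi, a matrix protein induced by TGF-β, rose from a mean of 11.97 ± 11.2 (SD, n = 4) in saline to 334 ± 78.5 FPKM (SD, n = 6), and the log2 fold change was 4.99 (SE 0.39, limma adjusted p = 3.98e-06). Its groups did not overlap. Hey1, a Notch and BMP target, fell from 116 ± 28.8 to 27.0 ± 9.15 FPKM, a log2 fold change of -2.09 (SE 0.26, limma adjusted p = 7.57e-05). Many cell types express Tgfbi, macrophages among them, and the source of these reads was not tested.

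In the second experiment the targeted gene was examined first. Fgfr1 was at 2.90, 2.91 and 2.60 FPKM in loxP/loxP mice and at 0.682, 1.41 and 1.15 FPKM in iΔEC/iΔEC mice. The groups did not overlap and the mean was 2.59-fold lower, in the direction of the labels. Reads were counted over the whole gene, and an exon of the antisense gene Gm16159 overlaps it. The log2 fold change was -0.88 (SE 0.16), with a limma adjusted p of 0.962 over all genes and an exact permutation p of 0.1, the smallest that 3 against 3 libraries can give. Of 14945 genes tested, 0 passed in limma in either direction (0% higher and 0% lower). The lowest adjusted p over all genes was 0.742, and 661 had an unadjusted p under 0.05. On read numbers with limma-voom 0 passed and 614 had an unadjusted p under 0.05.

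None of the 10 genes passed between iΔEC/iΔEC and loxP/loxP mice in limma, and 0 of 10 had an unadjusted p under 0.05. All 10 had a log2 fold change above 0, with a median of 0.30 against 0.01 over all genes, and the groups overlapped for each of them. On the endothelial scale, which moved the all-gene median from 0.01 to -0.19, Id1, Id2, Id3 and Smad7 turned below 0. The other log2 fold changes were smaller, at 0.38 for Bmp6, 0.22 for Acvrl1, 0.20 for Eng, 0.17 for Bmpr2, 0.11 for Smad6 and 0.0080 for Tgfbr3. Relative to the all-gene median on that scale, Bmp6 stood at 0.57, Smad7 at 0.13, Id2 at 0.11, Id1 at 0.05 and Id3 at -0.03. Groups that did not overlap made up 6.02% (higher) and 4.09% (lower) of all genes.

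The largest difference among the members was that of Bmp6, with 82.7, 43.8 and 63.8 FPKM in loxP/loxP 1 to 3 and 118.8, 65.3 and 113 FPKM in iΔEC/iΔEC 1 to 3. The log2 fold change was 0.63 (SE 0.31, limma adjusted p = 0.962, exact permutation p = 0.2), and leaving out single libraries moved it between 0.39 and 0.90. Only iΔEC/iΔEC 2 lay within the control range.

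Acvrl1 was at 299, 205 and 304 FPKM in loxP/loxP and at 408, 259 and 472 FPKM in iΔEC/iΔEC mice, a log2 fold change of 0.47 (SE 0.28, adjusted p = 0.962 in limma). Eng was at 399, 338 and 293 against 522, 370.0 and 531 FPKM, a log2 fold change of 0.46 (SE 0.22). For both genes iΔEC/iΔEC 2 was the lowest iΔEC/iΔEC library and the only one inside the control range. Bmpr2 had 56.3, 37.3 and 62.4 FPKM in loxP/loxP and 80.6, 54.2 and 73.4 FPKM in iΔEC/iΔEC mice, a log2 fold change of 0.42 (SE 0.24). Leaving out single libraries moved Bmpr2 between 0.20 and 0.59 and Acvrl1 between 0.29 and 0.72.

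Tgfbr3 was at 15.1, 10.8 and 10.5 against 16.2, 14.9 and 12.2 FPKM, with a log2 fold change of 0.24 (SE 0.17). Smad6 was at 137, 121 and 121 against 203, 117 and 183 FPKM (0.37, SE 0.22), and Smad7 at 35.7, 30.2 and 36.1 against 46.2, 28.0 and 45.2 FPKM (0.19, SE 0.21). In both inhibitory Smads, iΔEC/iΔEC 2 was under all controls and the other 2 iΔEC/iΔEC libraries were above them.

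The fitted log2 fold changes of the Id genes were 0.17 or less. Id1 was at 417, 459 and 290.1 against 366, 419.9 and 457 FPKM (log2 fold change 0.11, SE 0.23). Id2 was at 49.9, 58.5 and 35.3 against 40.2, 89.02 and 41.5 FPKM (0.17, SE 0.34), where iΔEC/iΔEC 2 was the highest. Id3 was at 199.8, 182 and 121 against 191, 139 and 177 FPKM (0.03, SE 0.23). With 3 libraries a group, the standard errors of the 10 genes were 0.17 to 0.34 on the log2 scale, and differences as large as that of Bmp6 did not pass.

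Libraries of the same replicate number deviated together in this experiment and were also compared as pairs. The labels give no more than the shared number. Deviations within a group of 3 libraries are not independent, so this is limited evidence of real pairs. Bmpr2, Acvrl1, Eng, Tgfbr3 and Bmp6 were higher in iΔEC/iΔEC in 3 of 3 pairs, Smad6, Smad7 and Id2 in 2 of 3, and Id1 and Id3 in 1 of 3. Thus 5 of the 10 genes were higher in all pairs, against 17.8% of all genes, and 0 of 10 were lower in all pairs, against 12.9%. Among the endothelial markers 6 of 10 were higher in all pairs. Their summed level was 2891, 2303 and 2399 FPKM in loxP/loxP and 3642, 2616 and 3336 FPKM in iΔEC/iΔEC 1 to 3, so it was higher in each pair as well. The leukocyte sum was 468, 610.4 and 551 against 306, 677 and 411 FPKM, with iΔEC/iΔEC 2 highest. Log2 fold changes were below 0 for 6 of 6 leukocyte, 8 of 8 neutrophil, 6 of 6 lymphocyte and 7 of 8 macrophage markers. They were above 0 for 4 of 4 erythroid markers. The epithelial sum was 936, 1688 and 2947 FPKM in loxP/loxP and 433, 1116 and 858 FPKM in iΔEC/iΔEC 1 to 3, and 10 of 10 epithelial markers had a log2 fold change below 0. The part of cell content in these differences was not tested. In the fit with the replicate number as a block, 0 genes passed, the smallest adjusted p over all genes was 0.306, and 1154 had an unadjusted p under 0.05.

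**Figure D4:**
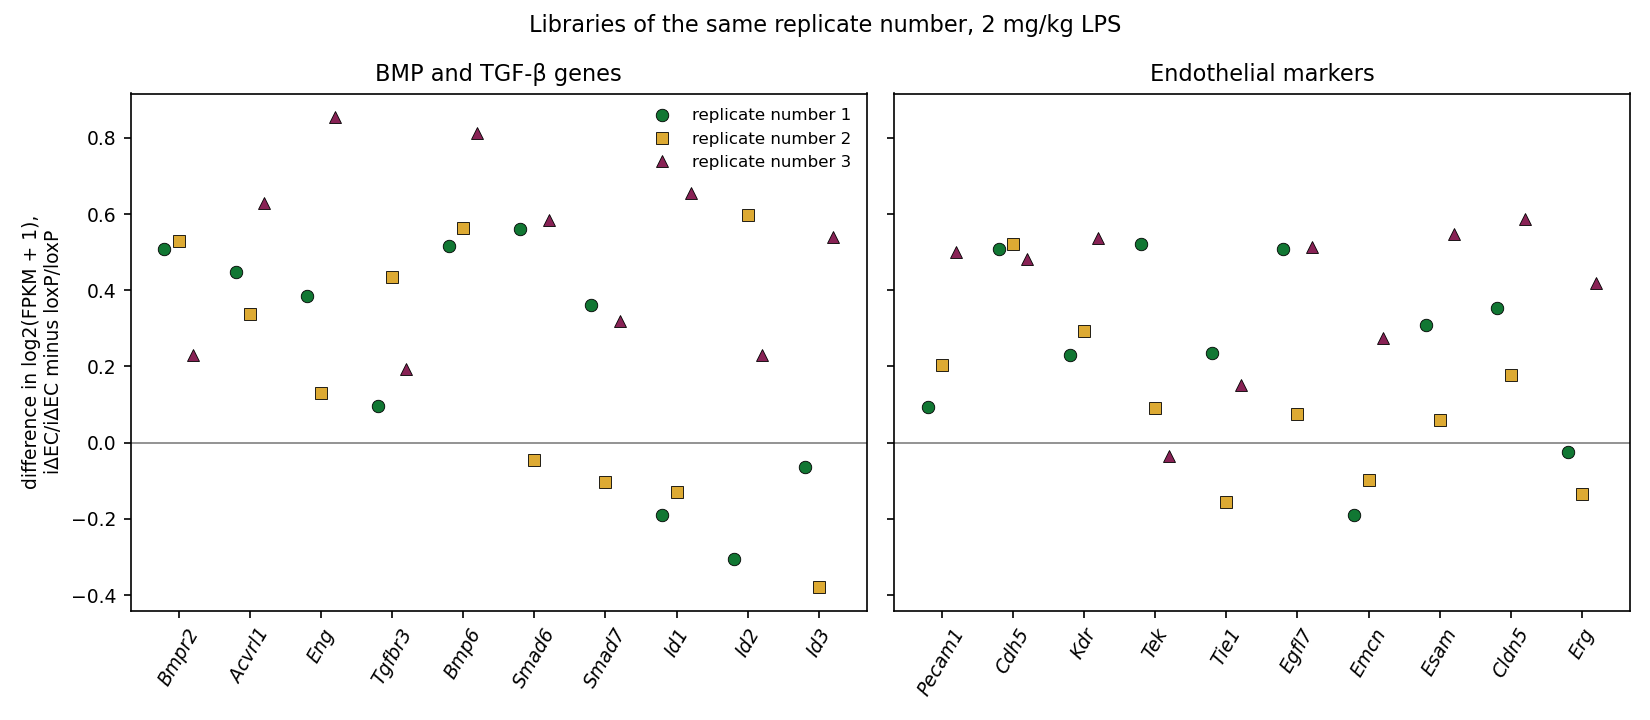
Difference in log2(FPKM + 1) between the iΔEC/iΔEC and loxP/loxP libraries of the same replicate number, for the 10 genes (left) and the 10 endothelial markers (right). Each symbol is 1 pair. Bmp6 lies between 0.52 and 0.81 in all 3 pairs, Cdh5 between 0.48 and 0.52, and the Id genes fall on both sides of 0.

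Of the 60 other pathway genes, 46 were tested in the second experiment and 0 passed in limma in either direction. Over all genes 4.42% had an unadjusted p under 0.05 in limma, and in this list 4 genes did. These were Acvr1b (34.8 ± 5.31 against 48.1 ± 4.73 FPKM, SD, n = 3 each, log2 fold change 0.46), Acvr1 (0.29), Ltbp3 (-0.26) and Acvr2a (0.35), followed by Tgfb2 (0.55). Acvr1b, Acvr1 and Acvr2a encode receptors of the activin and BMP branches, and in each of them all iΔEC/iΔEC libraries were above all loxP/loxP libraries. Over the list, 5 of the 46 genes were apart and higher and 1 was apart and lower, beside 6.02% and 4.09% of all genes. Acvr1b, Acvr1, Ltbp3, Acvr2a and Tgfb2 each had a limma adjusted p of 0.962. Scaled on the endothelial markers, the log2 fold changes were 0.21 for Acvr1b, 0.083 for Acvr1, -0.46 for Ltbp3, 0.14 for Acvr2a and 0.37 for Tgfb2. Higher in all pairs were 10 of the 46 genes (21.7%) and lower in all pairs were 7 (15.2%), beside 17.8% and 12.9% of all genes.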

How the data were processed

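RNA-seq reads were, per the labels and the study's methods, aligned by the authors to GRCm38 (mm10) with HISAT2 2.0.5 and counted on genes with featureCounts 1.5.0-p3. The authors deposited FPKM with gene lengths, 1 table per experiment. Dividing FPKM by the value of 1 read gave whole reads for 100.0% of values (tolerance 0.02 reads), and library sizes behind the FPKM matched median-of-ratios factors to within 0.1822%. The trimming, the handling of multi-mapped reads and the strandedness are not given in the sources used here. Reads are not independent molecules, so read numbers limit counting error only. Replicates were separate libraries (mean chi-square per gene at least 7.28 in any pair).

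Each table was scaled by median-of-ratios factors and fitted alone in limma 3.58.1 (R 4.3.3, intensity trend) on log2(FPKM + 1), with genes of mean FPKM at least 0.5 and Benjamini-Hochberg adjustment over all of them. Fold changes are on this scale and understate those of low genes. Single genes were also tested by two-sided exact permutation over libraries, which cannot go under 0.1 for 3 against 3. The fit was tested on simulated data. In the second experiment each same-numbered pair of libraries had correlated deviations from the group means (r = 0.25, 0.18 and 0.19), so the numbers were treated as pairs on this evidence from the data. Of the symbols in its table, 11 had turned into dates and were restored from the first. Alternatives covered scaling, pseudocount, filter, trend, limma-voom on read numbers, the replicate block, each left-out library, and saline 1 and saline 3 left out together. Permutation tests ran in scipy 1.17.1 under Python 3.11.15, with numpy 2.4.6 and pandas 2.3.3 for tables, and matplotlib 3.10.9 drew the figures. Positions and overlaps are from GENCODE M21, and promoters from RefSeq on GRCm38.p6.

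The members, gene lists and tests were chosen with earlier results of these data known. Named genes are all members, Fgfr1, up to 3 passing pathway genes per role with the largest change in LPS, the 5 pathway genes with the lowest p in the second experiment, the most abundant marker of each list, and the 3 genes most like Bmpr2, Acvrl1, Smad6 and Id1. Of these, 2 pathway genes are counted but not reported here. Genes named beside these (Pecam1, Ptprc, Gdf2, Bmp10, Tgfbr2, Smad1, Smad2, Smad4, Lrrc32, Cdh5 and overlapping genes) were named for their role, some after their values were seen. Kdr and Emcn were named as the ends of the range of the endothelial markers. The 9 marker lists stand for endothelial, mural and epithelial cells, fibroblasts, erythroid cells, leukocytes in general, neutrophils, macrophages and lymphocytes.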

Additional observations from a re-analysis of the deposited data

Results flagged for a closer look

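Among 38 sets of library values in the first experiment (10 genes and 9 marker lists in the saline and LPS groups), 2 had a library farther from the others than Dixon's limit, and chance would give about 1.9. Smad6 in saline 1 was at 323 FPKM, while the other 3 saline libraries were at 147 to 159.6 FPKM. The summed lymphocyte markers in saline 3 were at 24.0 FPKM, while the other saline libraries were at 104 to 134 FPKM.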

How the results depend on the processing

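In LPS against saline, Tgfbr3, Bmp6 and Id2 kept their direction and call under all 21 alternatives, and Bmpr2 and Smad7 under 20. Scaling on the endothelial markers, which moved the all-gene median to 0.57, reversed Acvrl1 (0.069), Eng (0.13), Id3 (0.039) and Smad5 (0.042). Relative to that median these genes stayed lower, at -0.50, -0.44, -0.53 and -0.53. The endothelial scale gave 7285 genes higher and 784 lower, 2 members higher and 2 lower, and 19 pathway genes higher and 11 lower. Total reads and quantile normalization each gave 8 members lower and 1 higher. Pathway genes were then 27 and 24 lower and 10 and 11 higher, respectively. On quantile-normalized values Acvrl1 was at -1.22 and Smad6 at -1.58. Quantile normalization reversed Id1 (-0.044). With a further limit of 1 on the size of the log2 fold change, 1768 genes were higher and 1011 lower, with 3 members and 10 pathway genes lower. Leaving out single libraries gave 1 to 2 members higher (2 without LPS 1) and 4 to 7 lower. Without both saline 1 and saline 3, Acvrl1 (adjusted p = 0.159) and Smad6 (0.176) did not pass and 4 members were lower. With no filter Acvrl1 (adjusted p = 0.114) and Smad6 (0.0793) did not pass. The replicate block in this experiment, where numbers are only shared names (r = 0.10, -0.16, -0.21 and -0.12 for the same-numbered libraries), left 4 members lower and 1 higher, and 3438 genes higher and 2561 lower. Of 26 pathway genes chosen by the rule on changes and roles, 17 kept direction and call in every alternative that could be fitted.

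In iΔEC/iΔEC against loxP/loxP, 0 genes passed under any alternative, the replicate block included. On the endothelial scale, where the median of all genes was -0.19, Smad7 (-0.055), Id1 (-0.14), Id2 (-0.073) and Id3 (-0.22) changed sign, and on total reads Id3 did (-0.034). Leaving out single libraries moved Id1 between -0.085 and 0.25, Id2 between -0.19 and 0.37, and Id3 between -0.18 and 0.17. It moved Bmp6 between 0.39 and 0.90, Acvrl1 between 0.29 and 0.72, Eng between 0.35 and 0.63, and Bmpr2 between 0.20 and 0.59. For Smad6 the range was 0.21 to 0.60, for Smad7 0.070 to 0.42 and for Tgfbr3 0.16 to 0.40. The cause of these changes was not tested. The members had at least 807 reads in each library, and the second experiment had 3 libraries a group.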
